A study of Mus musculus with 30 samples.

Results

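The 40 genes described here encode the contractile filaments, the Z disc, the calcium release machinery and the energy supply of striated muscle fibres. They were named by gene symbol, and every probe set annotated with a member's symbol was read. The members are 40 of the 22121 gene symbols on the array and 67 of its 45037 probe sets without controls, and 62 of these 67 were among the 36029 tested. Mouse skin lies on a thin sheet of striated muscle, the panniculus carnosus, beneath the subcutaneous fat, and its fibres are mostly of the fast type. Messages for myosin, actin, troponin and creatine kinase are among the most abundant in a muscle fibre, and most other cells of the skin make few of them. Phorbol ester (TPA) painted on skin activates protein kinase C and sets off an inflammation that later resolves.

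The study painted TPA on the back skin of WT mice and of mice without D6, an atypical chemokine receptor that takes up and degrades inflammatory CC chemokines, and followed the inflammation over time. It asked how the skin's transcripts differ between the genotypes as the inflammation develops and recedes. Female mice of 129–C57BL/6 strain, 8 to 12 weeks old, received 3 applications of TPA at 50 µM, 24 h apart, on shaved dorsal skin. Skin was taken 1, 2, 4 or 6 days later, and day 0 skin was the control without TPA. Each of the 10 groups, 2 genotypes by 5 days, held 3 arrays of 3 mice, 30 arrays in all. The control mice, titled untreated, received acetone, the solvent, without TPA.

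The D6 gene itself, Ccbp2, has 3 probe sets. By 1 of them the values ran from 4.15 to 5.76 in the WT arrays and 3.30 to 3.86 in the D6-deficient arrays, with no overlap. The other 2 ran from 5.14 to 6.26 in the WT arrays and 4.55 to 5.42 in the D6-deficient arrays, and from 6.69 to 8.54 in the WT arrays and 6.59 to 8.09 in the D6-deficient arrays, both with overlap. All values are log2 intensities, which ran from 2.26 to 14.98 over the arrays, with array medians between 5.64 and 5.80. The whole skin was ground before RNA was extracted, so no value places a message in the panniculus rather than in another muscle of the skin. Muscle message was abundant in control skin, since Ckm (muscle creatine kinase) read 13.90, 13.86 and 14.01 in the WT day 0 arrays, Tnni2 (fast troponin I) 13.95, 13.82 and 14.01, and Acta1 (skeletal alpha actin) 14.47, 14.39 and 14.44. In ground tissue, fewer muscle fibres in the piece and less message per fibre give the same lower value and cannot be told apart.

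Differences were tested with limma on all 30 arrays, 1 mean per genotype and day, and adjusted over the 36029 tested probe sets of each comparison. A probe set passed when its adjusted p was under 0.05, and it was called when its difference was also over 3-fold. Each gene is quoted by its brightest probe set, and differences are log2 differences. A percentage after a member count is the share of all tested probe sets that met the same rule. The 4 comparisons of a genotype with its day 0 share the same 3 day 0 arrays, so a day 0 array that ran high or low moves all 4 of them. For changes relative to day 0, the methods' t-test compared the arrays of that day after subtracting the mean of each genotype's day 0 arrays. The paper's baseline step uses the median of the controls instead. The spread of the day 0 arrays does not enter that t-test. The median SD between arrays of a group was 0.19 over all tested probe sets. As a measure of RNA quality, the 3' minus 5' difference of the Actb control probe sets averaged 0.75, 0.52, 0.58, 0.41 and 0.53 in WT skin at days 0, 1, 2, 4 and 6, and 1.02, 0.47, 0.54, 0.49 and 0.55 in D6-deficient skin. The Gapdh difference averaged 0.08, −0.02, −0.01, −0.01 and −0.02 in WT skin, and 0.18, −0.04, −0.01, 0.10 and 0.07 in D6-deficient skin. The part of RNA quality in the member values was not tested. The hybridization control probe sets split the arrays by their level into a lower set of 13 and a higher set of 17, used as a covariate in an alternative fit. All 3 D6-deficient day 6 arrays were in the higher set, and every other group held arrays of both sets.

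Averaged over the 40 genes, muscle message was at its highest in control skin and lower on every day after TPA in both genotypes. The mean stood nearer to day 0 on day 4 and was lower again on day 6. In WT skin the mean was 11.43 ± 0.08 at day 0, 10.02 ± 0.42 at day 1, 10.12 ± 0.10 at day 2, 10.52 ± 0.11 at day 4 and 10.19 ± 0.30 at day 6 (SD, 3 arrays each). For D6-deficient skin it was 11.32 ± 0.13, 9.40 ± 0.24, 9.59 ± 0.02, 10.13 ± 0.34 and 9.38 ± 0.33 on the same days. Some arrays stood apart from their group in nearly all members at once. WT day 1 replicate 3 lay 0.49 above its group's mean with 39 of 40 genes above it, WT day 6 replicate 3 lay 0.29 above with 38 genes, and D6-deficient day 4 replicate 1 lay 0.39 above with 38 genes. On the low side, WT day 6 replicate 2 deviated by −0.32 with 4 of 40 genes above the group mean. D6-deficient day 6 replicate 2 deviated by −0.37 with 3 genes above, and WT day 1 replicate 2 by −0.29 with 2 genes above. From day 2 to day 4 the group mean of 37 of 40 genes was higher in each genotype, with median differences of 0.31 in WT and 0.53 in D6-deficient skin. From day 4 to day 6 it was lower for 33 genes in WT skin and for 38 in D6-deficient skin, with median differences of −0.20 and −0.75. The step from day 1 to day 2 was higher for 28 genes in WT and 29 in D6-deficient skin, with medians of 0.10 and 0.21. These steps between days after TPA were not tested.

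On day 1 the muscle genes were lower than in control skin in both genotypes. The fast myosin gene Myh4, the alpha actinin gene Actn3, the titin gene Ttn and the fast myosin binding protein gene Mybpc2 were among the 5 members that fell most in each genotype, and the 3 slow troponin genes did not pass the test. In WT skin, limma called 30 of 62 member probe sets lower, against 0.835% of all tested, and 55 passed as lower, against 12.7%. By gene, 18 of 40 were called lower and 36 passed as lower, with a median change of −1.50. Called higher were 0, against 0.93% of all tested, and 0 probe sets passed as higher (11.4%), 0 at an unadjusted 0.05 by limma (16.6%) and 0 by the methods' t-test (14.8%). In D6-deficient skin, limma called 43 of 62 member probe sets lower, against 1.43% of all tested, and 56 passed as lower, against 18.1%. By gene, 28 of 40 were called lower and 36 passed as lower, with a median change of −2.06. The number called higher was 0, against 1.06% of all tested, and 0 probe sets passed as higher (18.2%), 1 at an unadjusted 0.05 by limma (22.7%) and 1 by the methods' t-test (21.0%). By the methods' t-test with adjustment, 12 were called lower in WT skin, against 0.464% of all tested. The 5 largest changes in WT skin were Myh4 −2.50, Actn3 −2.23, Ttn −2.19, Mybpc2 −2.13 and Myom1 −2.11. Closest to 0 were Acta1 −0.55, Myh2 −0.52, Tnnt1 −0.17, Tnni1 −0.08 and Tnnc1 0.01. Among D6-deficient arrays the largest were Myh4 −3.30, Ttn −3.27, Actn3 −3.15, Neb −2.93 and Mybpc2 −2.92. The smallest were Acta1 −0.83, Mybph −0.81, Tnnt1 0.68, Tnni1 0.05 and Tnnc1 0.03. Whether the changes differ between genotypes is in the contrasts relative to day 0 further on.

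On day 2 the same kinds of genes were low. All 9 calcium and membrane genes fell in both genotypes, and in WT skin the 3 slow troponins, Myh2 (myosin heavy chain 2A) and Mybph did not pass. For WT skin, limma called 24 of 62 member probe sets lower, against 0.699% of all tested, and 52 passed as lower, against 15.0%. By gene, 16 of 40 were called lower and 35 passed as lower, with a median change of −1.33. Called higher were 0, against 1.2% of all tested, and 1 probe set, the dim second of Mb at 0.38, passed as higher (11.0%), 1 at an unadjusted 0.05 by limma (16.0%) and 0 by the methods' t-test (14.0%). For D6-deficient skin, limma called 39 of 62 member probe sets lower, against 1.57% of all tested, and 57 passed as lower, against 20.6%. By gene, 26 of 40 were called lower and 37 passed as lower, with a median change of −1.82. The number called higher was 0, against 1.7% of all tested, and 0 probe sets passed as higher (17.5%), 0 at an unadjusted 0.05 by limma (21.1%) and 1 by the methods' t-test (19.6%). In WT skin the largest changes were Actn3 −2.21, Casq1 −2.15, Myh4 −2.13, Mybpc2 −2.05 and Pygm −1.90. Nearest to 0 were Jph1 −0.55, Myh2 −0.41, Tnnc1 −0.39, Tnni1 −0.34 and Tnnt1 −0.16. In D6-deficient skin the largest were Pvalb −2.83, Ttn −2.83, Actn3 −2.70, Pygm −2.52 and Atp2a1 −2.50. The changes of smallest size there were Jph1 −0.85, Cacng1 −0.73, Tnnt1 0.33, Tnni1 −0.21 and Tnnc1 −0.15.

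On day 4 most muscle genes were still low, by less than on day 1 in the median. Mybph (myosin binding protein H) went the other way in WT skin, and Cav3 and Cacng1, genes of the muscle membrane, were near their day 0 level in both genotypes. In WT arrays of day 4, limma called 7 of 62 member probe sets lower, against 1.48% of all tested, and 46 passed as lower, against 21.8%. By gene, 5 of 40 were called lower and 32 passed as lower, with a median change of −0.94. Called higher were 0, against 1.76% of all tested, and 1 probe set, that of Mybph, passed as higher (17.3%), 2 at an unadjusted 0.05 by limma (21.3%) and 1 by the methods' t-test (19.5%). In D6-deficient arrays of day 4, limma called 23 of 62 member probe sets lower, against 2.04% of all tested, and 52 passed as lower, against 22.4%. By gene, 14 of 40 were called lower and 34 passed as lower, with a median change of −1.23. The number called higher was 0, against 1.97% of all tested, and 0 probe sets passed as higher (18.8%), 0 at an unadjusted 0.05 by limma (22.8%) and 0 by the methods' t-test (19.1%). The WT count of 7 called rested on single arrays, being 2 without WT day 4 replicate 3, 14 without WT day 4 replicate 2 and 13 without WT day 0 replicate 2. Largest among the WT changes were Myom1 −1.73, Pygm −1.65, Mybpc2 −1.64, Ryr1 −1.62 and Cacna1s −1.60. These 5 were the genes called, and smallest were Tnni1 −0.19, Cacng1 0.16, Tnnt1 −0.11, Cav3 −0.03 and Tnnc1 −0.03. Largest among the D6-deficient changes were Myom1 −2.22, Neb −2.04, Myh4 −2.02, Pygm −1.96 and Ryr1 −1.95. Those nearest to 0 were Mybph 0.24, Tnnc1 0.19, Tnnt1 0.17, Cav3 0.11 and Cacng1 0.09.

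On day 6 the muscle genes were again about as low as on days 1 and 2 in the median. Nebulin, titin and mitochondrial creatine kinase were among the genes that fell most in D6-deficient skin, where the slow troponin T gene Tnnt1 rose. In WT arrays of day 6, limma called 26 of 62 member probe sets lower, against 0.541% of all tested, and 53 passed as lower, against 11.9%. By gene, 14 of 40 were called lower and 35 passed as lower, with a median change of −1.32. Called higher were 0, against 0.799% of all tested, and 0 probe sets passed as higher (10.2%), 0 at an unadjusted 0.05 by limma (15.9%) and 0 by the methods' t-test (14.0%). In D6-deficient arrays of day 6, limma called 44 of 62 member probe sets lower, against 1.24% of all tested, and 57 passed as lower, against 15.7%. By gene, 29 of 40 were called lower and 36 passed as lower, with a median change of −2.20. The number called higher was 0, against 0.888% of all tested, and 1 probe set, that of Tnnt1, passed as higher (16.0%), 1 at an unadjusted 0.05 by limma (20.4%) and 1 by the methods' t-test (13.3%). Without WT day 6 replicate 2, the array low in most members, the WT count of 26 called was 12. By the methods' t-test with adjustment it was 0, against 0.0% of all tested. WT skin had its largest changes in Myh4 −2.11, Actn3 −1.90, Pygm −1.87, Myom1 −1.83 and Ttn −1.81. Least moved were Myh2 −0.53, Acta1 −0.47, Tnnc1 −0.32, Tnni1 0.31 and Tnnt1 −0.04. D6-deficient skin had its largest changes in Neb −3.15, Ckmt2 −2.89, Ttn −2.87, Myom2 −2.86 and Myot −2.79. Least moved there were Tnnt1 1.02, Jph1 −0.99, Acta1 −0.96, Tnni1 0.72 and Tnnc1 −0.18. The median over all tested probe sets was −0.01, 0.00, 0.01 and 0.00 in WT skin at days 1, 2, 4 and 6, and 0.02, −0.01, 0.01 and −0.01 in D6-deficient skin.

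**Figure D1:**
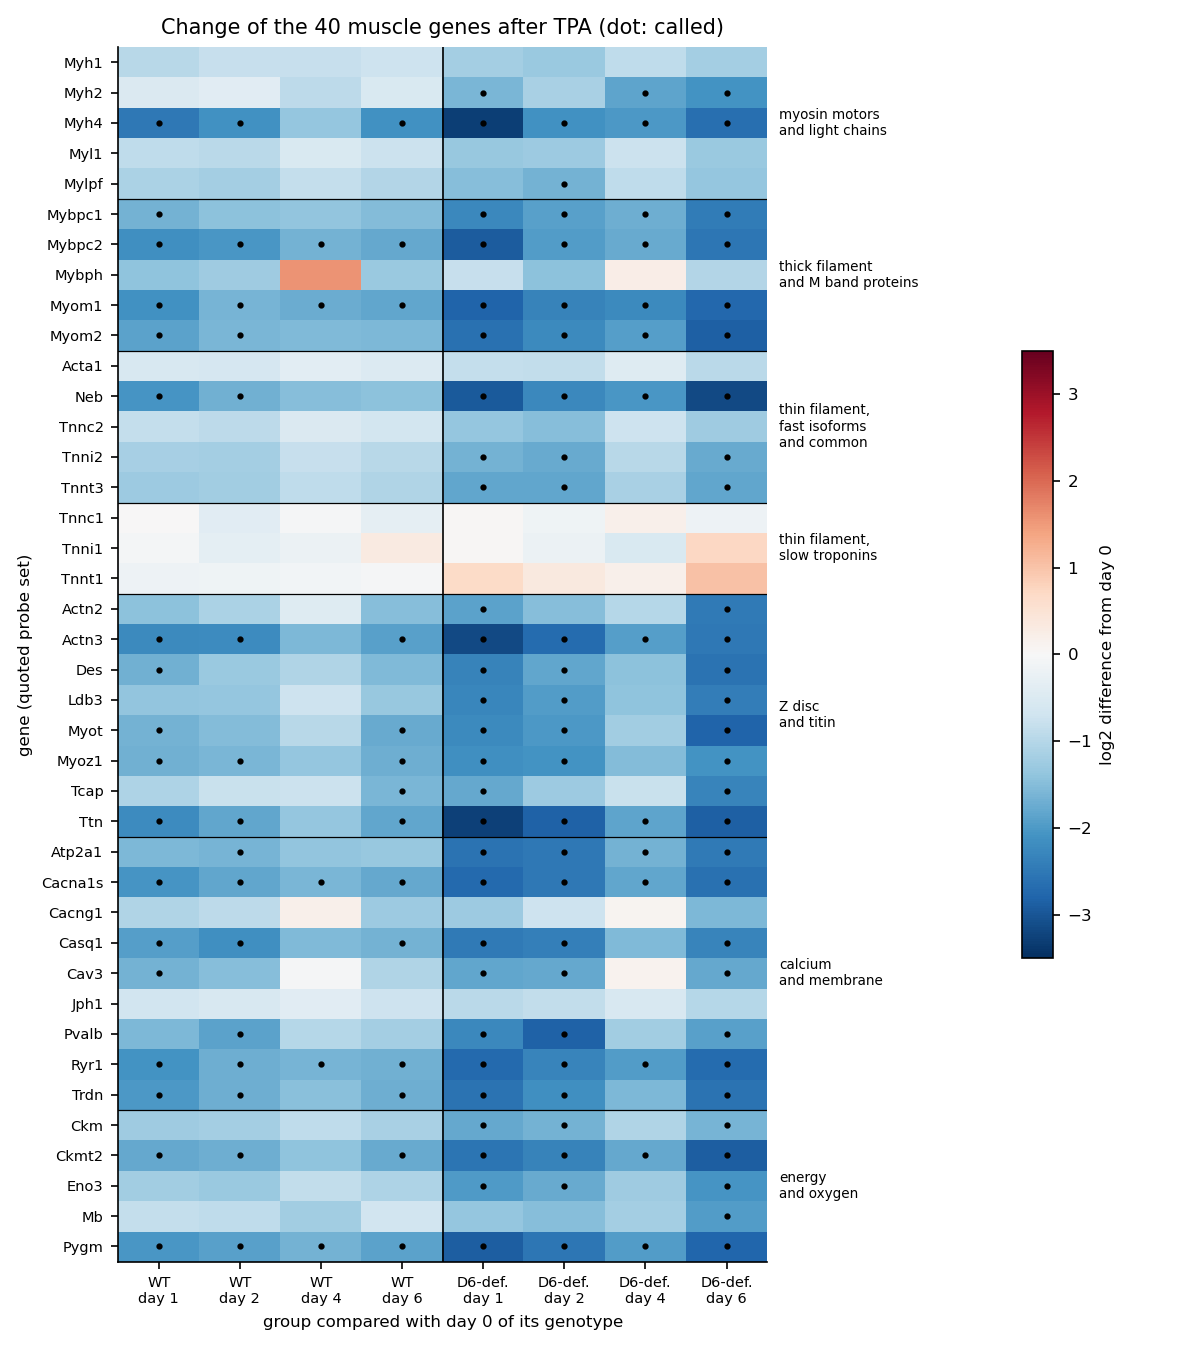
Log2 change from day 0 of the 40 members, each by its brightest probe set, at days 1, 2, 4 and 6 in WT and D6-deficient skin, grouped by role. Most members lie below 0 in all 8 comparisons, with medians from −0.94 to −2.20, and the slow troponins Tnni1, Tnnt1 and Tnnc1 lie nearest to 0 in most, with Tnnt1 at 1.02 in D6-deficient skin on day 6.

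A 250 base window before the transcription start was read for the members first described with a sequence in what follows, from the RefSeq annotation of GRCm38.p6. Starts were matched for 29 of 40 members. Capitals mark matches on either strand to motifs bound by muscle transcription factors or the basal machinery: the E-box CANNTG, the MEF2 site, the CArG box and TATAAA. A match describes the sequence and shows no binding. An E-box occurred in 66.2% of all 32851 promoter windows and in 24 of the 29 member windows (82.8%). A MEF2 site occurred in 2.92% of all windows and in 4 member windows (13.8%), those of Myh1, Myh4, Pvalb and Ttn. The CArG box was found in 1.47% of all windows and in 4 member windows (13.8%), those of Acta1, Ldb3, Myh4 and Myom1. TATAAA was found in 12.4% of all windows and in 6 member windows (20.7%), those of Acta1, Mybph, Myh1, Myh4, Myl1 and Tnnt1.

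Myosin is the motor of the thick filament, and its heavy chain genes set the speed of a fibre. Myh4 encodes the heavy chain of the fastest fibres (type 2B), Myh1 that of type 2X and Myh2 that of the slower type 2A. Myl1 and Mylpf encode their light chains. Of the 5 genes of this role, 1, 1, 0 and 1 were called lower in WT skin at days 1, 2, 4 and 6, with medians of −0.97, −0.93, −0.83 and −0.76. D6-deficient counts were 2, 2, 2 and 2, with medians of −1.48, −1.30, −0.89 and −1.34. The Myh4 window, chr11:67237562-67237811 on the plus strand, held 2 E-boxes, 1 MEF2 site, 1 CArG box and 3 matches to TATAAA, 1 of which overlaps the MEF2 site.

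Myh4: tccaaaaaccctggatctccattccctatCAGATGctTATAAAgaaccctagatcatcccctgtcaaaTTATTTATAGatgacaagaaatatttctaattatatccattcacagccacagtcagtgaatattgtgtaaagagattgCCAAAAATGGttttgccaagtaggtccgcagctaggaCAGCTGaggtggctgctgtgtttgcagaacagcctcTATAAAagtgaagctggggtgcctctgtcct

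WT arrays read Myh4 (gene 17884) at 13.48, 13.09 and 13.55 on day 0, 10.67, 10.65 and 11.30 on day 1, 10.94, 11.28 and 11.51 on day 2, 12.30, 11.86 and 11.90 on day 4, and 10.22, 11.35 and 12.23 on day 6. D6-deficient arrays read Myh4 at 12.60, 13.09 and 12.81 on day 0, 10.38, 8.84 and 9.38 on day 1, 11.30, 10.07 and 10.77 on day 2, 11.79, 10.01 and 10.65 on day 4, and 10.45, 9.83 and 10.28 on day 6. All arrays after TPA lay below all day 0 arrays of their genotype, and the WT values at day 6 spread over 2 log2 units. Against day 0, Myh4 in WT skin differed by −2.50 (5.67-fold, adjusted p = 0.000173) on day 1, −2.13 (4.39-fold, adjusted p = 0.0007) on day 2, −1.35 (2.56-fold, adjusted p = 0.0151) on day 4, and −2.11 (4.32-fold, adjusted p = 0.00118) on day 6, with an SE of 0.43 for each. The D6-deficient differences were −3.30 (9.84-fold, adjusted p = 3.71e-06) on day 1, −2.12 (4.35-fold, adjusted p = 0.000395) on day 2, −2.02 (4.04-fold, adjusted p = 0.000563) on day 4, and −2.65 (6.27-fold, adjusted p = 7.06e-05) on day 6. Without WT day 0 replicate 3, the WT day 4 difference was −1.27 and no longer passed.

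WT arrays read Myh2 (gene 17882) at 10.18, 10.46 and 11.18 on day 0, 9.87, 9.67 and 10.73 on day 1, 10.40, 10.26 and 9.94 on day 2, 9.82, 10.20 and 9.09 on day 4, and 10.16, 9.84 and 10.22 on day 6. D6-deficient arrays read Myh2 at 11.41, 10.81 and 10.75 on day 0, 9.19, 9.41 and 9.60 on day 1, 9.62, 9.90 and 10.03 on day 2, 9.63, 8.71 and 9.07 on day 4, and 8.60, 8.85 and 9.23 on day 6. The WT days overlapped with day 0, whose arrays spread over 1 log2 unit, and the D6-deficient arrays after TPA all lay below those of day 0. In WT skin the Myh2 differences were −0.52 (1.43-fold, adjusted p = 0.227) on day 1, −0.41 (1.33-fold, adjusted p = 0.341) on day 2, −0.91 (1.87-fold, adjusted p = 0.0179) on day 4, and −0.53 (1.45-fold, adjusted p = 0.216) on day 6, with an SE of 0.30, and only that at day 4 passed. It no longer did without WT day 0 replicate 3 (−0.62) or WT day 4 replicate 3 (−0.60), nor by the methods' t-test or from the arrays of that comparison alone. In D6-deficient skin Myh2 fell at all 4 days, with −1.59 (3.01-fold, adjusted p = 0.000209) on day 1, −1.14 (2.21-fold, adjusted p = 0.00362) on day 2, −1.85 (3.61-fold, adjusted p = 2.09e-05) on day 4, and −2.10 (4.27-fold, adjusted p = 1.35e-05) on day 6. The genotypes' Myh2 changes were not shown to differ, since the contrasts relative to day 0 were −1.07 (adjusted p = 0.391), −0.73 (adjusted p = 0.408), −0.95 (adjusted p = 0.395) and −1.56 (adjusted p = 0.26) at days 1, 2, 4 and 6. Myh1 fell in both genotypes, by 0.97 at day 1 in WT skin (adjusted p = 0.000185), and its change in D6-deficient skin was −1.19 (adjusted p = 9.36e-06). The light chains fell too, with Myl1 at −0.89 (adjusted p = 0.000594) in WT and −1.33 (adjusted p = 3.3e-06) in D6-deficient skin at day 1. Mylpf was at −1.10 (adjusted p = 0.000349) and −1.48 (adjusted p = 6.78e-06). Myl1 no longer passed in WT skin on day 4 (−0.54) without WT day 4 replicate 1 (−0.48) or WT day 4 replicate 3 (−0.50).

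Myosin binding proteins C and H sit along the thick filament, and myomesins tie the filaments together at the M band. Mybpc2 is the fast form and Mybpc1 the slow form of the binding protein, and Mybph is a smaller relative without the regulatory domains. These genes fell strongly after TPA, with the exception of Mybph. Of the 5 genes here, 4, 3, 2 and 2 were called lower in WT skin at days 1, 2, 4 and 6, with medians of −1.87, −1.60, −1.54 and −1.56. D6-deficient counts were 4, 4, 4 and 4, with medians of −2.62, −1.96, −1.77 and −2.52. Myom1 (myomesin 1) fell at every day, with −2.11 (adjusted p = 2.13e-06) at day 1 and −1.73 (adjusted p = 6.45e-06) at day 4 in WT skin. In D6-deficient skin Myom1 stood at −2.80 (adjusted p = 2.12e-08) on day 1 and −2.22 (adjusted p = 1.43e-07) on day 4. Mybpc2 was at −2.13 (adjusted p = 1.21e-05) on day 1 in WT skin and −2.92 (adjusted p = 1.04e-07) in D6-deficient skin. Mybpc1 was at −1.66 (adjusted p = 4.49e-05) and −2.26 (adjusted p = 5.03e-07) in the same comparisons. Myom2 (myomesin 2) fell most on day 6 in D6-deficient skin, at −2.86 (SE 0.26, adjusted p = 3.18e-08), where WT skin had −1.56 (adjusted p = 0.00014). Mybph passed as lower in WT skin at day 1, at −1.40 (adjusted p = 0.0336), and in D6-deficient skin at day 2, at −1.42 (adjusted p = 0.0203). The first of these no longer passed without WT day 0 replicate 2 (−1.21), WT day 0 replicate 3 (−1.42), WT day 1 replicate 1 (−1.32) or WT day 1 replicate 2 (−1.24). The D6-deficient value no longer did without D6-deficient day 0 replicate 1 (−0.89) or D6-deficient day 2 replicate 3 (−1.32).

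The thin filament is built of actin, held to length by nebulin, and switched on by calcium through troponins T, I and C. Acta1 encodes skeletal alpha actin, Neb nebulin, and Tnnt3, Tnni2 and Tnnc2 the fast troponins. Their messages fell on all days after TPA. Of the 5 thin filament genes, 1, 1, 0 and 0 were called lower in WT skin at days 1, 2, 4 and 6, with medians of −1.17, −1.18, −0.81 and −0.96. D6-deficient counts were 3, 3, 1 and 3, with medians of −1.65, −1.76, −0.98 and −1.75. The Acta1 window, chr8:123894776-123895025 on the minus strand, held 1 match to TATAAA, 1 CArG box and 2 E-boxes.

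Acta1: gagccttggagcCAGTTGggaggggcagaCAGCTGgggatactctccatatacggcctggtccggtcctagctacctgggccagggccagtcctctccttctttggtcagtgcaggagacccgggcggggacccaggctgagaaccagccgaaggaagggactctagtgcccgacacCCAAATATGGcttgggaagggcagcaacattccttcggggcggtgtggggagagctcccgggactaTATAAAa

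WT arrays read Acta1 (gene 11459) at 14.47, 14.39 and 14.44 on day 0, 13.74, 13.76 and 14.14 on day 1, 13.96, 13.87 and 13.69 on day 2, 14.07, 14.14 and 14.02 on day 4, and 14.03, 13.81 and 14.06 on day 6. D6-deficient arrays read Acta1 at 14.36, 14.35 and 14.46 on day 0, 13.68, 13.54 and 13.47 on day 1, 13.54, 13.46 and 13.58 on day 2, 14.13, 13.85 and 13.82 on day 4, and 13.53, 13.02 and 13.75 on day 6. All arrays after TPA lay below the day 0 arrays of their genotype, by less than in most members, and the gene sat near the top of the array's range. WT differences of Acta1 were −0.55 (1.47-fold, adjusted p = 0.0047) on day 1, −0.59 (1.51-fold, adjusted p = 0.00246) on day 2, −0.36 (1.28-fold, adjusted p = 0.041) on day 4, and −0.47 (1.38-fold, adjusted p = 0.0166) on day 6, with an SE of 0.14 for each. For D6-deficient skin they were −0.83 (1.78-fold, adjusted p = 6.03e-05) on day 1, −0.87 (1.82-fold, adjusted p = 2.48e-05) on day 2, −0.46 (1.37-fold, adjusted p = 0.00987) on day 4, and −0.96 (1.94-fold, adjusted p = 1.67e-05) on day 6. The WT day 4 difference ended with any 1 of its 6 arrays left out, at values from −0.39 to −0.33, and with arrays centred on their medians. That at day 6 ended without WT day 0 replicate 1 (−0.45) or WT day 6 replicate 2 (−0.39).

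WT arrays read Tnni2 (gene 21953) at 13.95, 13.82 and 14.01 on day 0, 12.55, 12.56 and 13.16 on day 1, 12.82, 12.77 and 12.64 on day 2, 13.16, 13.20 and 12.99 on day 4, and 13.06, 12.69 and 13.14 on day 6. D6-deficient arrays read Tnni2 at 13.73, 13.78 and 13.97 on day 0, 12.45, 11.93 and 12.16 on day 1, 12.15, 12.05 and 12.000 on day 2, 13.19, 12.69 and 12.68 on day 4, and 12.26, 11.52 and 12.45 on day 6. No array after TPA reached the lowest day 0 array of its genotype, and WT day 1 replicate 3 was the high array of its group. Tnni2 fell in WT skin, with −1.17 (2.25-fold, adjusted p = 0.00012) on day 1, −1.18 (2.26-fold, adjusted p = 8.59e-05) on day 2, −0.81 (1.75-fold, adjusted p = 0.00194) on day 4, and −0.96 (1.95-fold, adjusted p = 0.00108) on day 6 and an SE of 0.20. It fell in D6-deficient skin, with −1.65 (3.13-fold, adjusted p = 9.82e-07) on day 1, −1.76 (3.39-fold, adjusted p = 1.95e-07) on day 2, −0.98 (1.97-fold, adjusted p = 0.000266) on day 4, and −1.75 (3.37-fold, adjusted p = 5.15e-07) on day 6. Neb fell further, with −3.15 (SE 0.30, adjusted p = 7.23e-08) in D6-deficient skin at day 6, the largest change there among the members' brightest probe sets, and −1.44 (adjusted p = 0.00141) in WT skin. Tnnt3 was at −1.27 (adjusted p = 8.46e-05) in WT and −1.82 (adjusted p = 5.33e-07) in D6-deficient skin at day 1. Tnnc2 was at −0.84 (adjusted p = 0.00107) and −1.36 (adjusted p = 2.64e-06). In WT skin Tnnc2 no longer passed on day 4 (−0.51) without WT day 0 replicate 3 (−0.51), WT day 4 replicate 1 (−0.50) or WT day 4 replicate 3 (−0.50), and on day 6 (−0.66) without WT day 6 replicate 2 (−0.52).

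Slow fibres carry their own troponins, encoded by Tnnt1, Tnni1 and Tnnc1, the last of which the heart shares. A fast muscle holds few slow fibres, and Tnni1 and Tnnc1 passed in no comparison with day 0. Of the 3 slow troponin genes, 0, 0, 0 and 0 were called lower in WT skin at days 1, 2, 4 and 6 by limma, with medians of −0.08, −0.34, −0.11 and −0.04. D6-deficient counts were 0, 0, 0 and 0, with medians of 0.05, −0.15, 0.17 and 0.72. The Tnni1 window, chr1:135799171-135799420 on the plus strand, at 1 of 2 listed starts, held 4 E-boxes.

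Tnni1: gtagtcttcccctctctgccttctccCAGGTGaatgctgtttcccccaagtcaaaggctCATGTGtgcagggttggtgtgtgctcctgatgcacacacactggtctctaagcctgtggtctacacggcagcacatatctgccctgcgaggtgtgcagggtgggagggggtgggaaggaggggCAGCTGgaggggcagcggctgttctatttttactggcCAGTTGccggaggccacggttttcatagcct

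WT arrays read Tnni1 (gene 21952) at 4.96, 5.93 and 4.50 on day 0, 5.49, 4.41 and 5.25 on day 1, 4.41, 4.97 and 4.996 on day 2, 4.80, 4.98 and 5.03 on day 4, and 5.30, 5.83 and 5.20 on day 6. D6-deficient arrays read Tnni1 at 5.79, 5.65 and 4.83 on day 0, 5.40, 5.89 and 5.12 on day 1, 5.22, 5.24 and 5.19 on day 2, 4.77, 4.93 and 4.997 on day 4, and 6.17, 7.11 and 5.13 on day 6. Each day overlapped with day 0 in both genotypes, and the highest value was that of D6-deficient day 6 replicate 2. None of the Tnni1 differences passed, with −0.08 (1.06-fold, adjusted p = 0.912) on day 1, −0.34 (1.26-fold, adjusted p = 0.556) on day 2, −0.19 (1.14-fold, adjusted p = 0.72) on day 4, and 0.31 (1.24-fold, adjusted p = 0.615) on day 6 in WT skin and an SE of 0.38. In D6-deficient skin they were 0.05 (1.04-fold, adjusted p = 0.934) on day 1, −0.21 (1.15-fold, adjusted p = 0.712) on day 2, −0.52 (1.44-fold, adjusted p = 0.282) on day 4, and 0.72 (1.64-fold, adjusted p = 0.156) on day 6. Tnnt1 rose in D6-deficient skin at day 6, by 1.02 (SE 0.31, adjusted p = 0.013), and not past the test at the other days there or in WT skin, where day 6 gave −0.04 (adjusted p = 0.949). That rise no longer passed without D6-deficient day 6 replicate 1 (0.71) or from the arrays of the comparison alone, and the contrast relative to day 0 was 1.06 (adjusted p = 0.538). Tnnc1 passed in none of the 8 comparisons, and its largest difference was −0.39 (adjusted p = 0.125) in WT skin at day 2.

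The Z disc anchors the thin filaments of neighbouring sarcomeres, and titin spans from it to the M band. Actn3 and Actn2 encode alpha actinins, Ttn titin, Des the desmin filament around the disc, and Myot, Myoz1, Ldb3 and Tcap proteins that bind them. These genes fell in both genotypes, in the median least on day 4. Of the 8 Z disc and titin genes, 5, 3, 0 and 5 were called lower in WT skin at days 1, 2, 4 and 6, with medians of −1.67, −1.43, −1.01 and −1.66. D6-deficient counts were 8, 6, 2 and 8, with medians of −2.25, −1.98, −1.42 and −2.49.

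WT arrays read Actn3 (gene 11474) at 12.55, 12.29 and 12.91 on day 0, 10.03, 10.05 and 10.99 on day 1, 10.45, 10.21 and 10.47 on day 2, 11.28, 11.07 and 10.73 on day 4, and 10.62, 10.23 and 11.21 on day 6. D6-deficient arrays read Actn3 at 12.20, 11.87 and 12.38 on day 0, 9.31, 8.79 and 8.90 on day 1, 9.66, 9.17 and 9.51 on day 2, 10.82, 9.77 and 10.10 on day 4, and 9.75, 9.07 and 10.10 on day 6. Day 0 arrays were the highest in both genotypes without overlap, and the day 1 arrays were the lowest in D6-deficient skin on average. Actn3 differed from day 0 by −2.23 (4.68-fold, adjusted p = 8.34e-06) on day 1, −2.21 (4.61-fold, adjusted p = 6.5e-06) on day 2, −1.56 (2.95-fold, adjusted p = 0.00017) on day 4, and −1.90 (3.72-fold, adjusted p = 8.6e-05) on day 6 in WT skin, with an SE of 0.29. The D6-deficient values were −3.15 (8.88-fold, adjusted p = 4.62e-08) on day 1, −2.70 (6.51-fold, adjusted p = 1.6e-07) on day 2, −1.92 (3.78-fold, adjusted p = 1.2e-05) on day 4, and −2.51 (5.69-fold, adjusted p = 1.1e-06) on day 6.

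WT arrays read Des (gene 13346) at 12.005, 11.83 and 12.09 on day 0, 10.27, 9.98 and 10.61 on day 1, 10.68, 10.75 and 10.63 on day 2, 11.18, 10.78 and 10.81 on day 4, and 10.57, 9.94 and 10.75 on day 6. D6-deficient arrays read Des at 11.91, 12.05 and 12.24 on day 0, 10.07, 9.56 and 9.58 on day 1, 9.95, 10.26 and 10.52 on day 2, 10.77, 10.50 and 10.65 on day 4, and 9.73, 9.06 and 9.63 on day 6. Again no array after TPA overlapped with day 0, and the lowest group was day 6 of D6-deficient skin. Des fell in WT skin, with −1.69 (3.22-fold, adjusted p = 2.86e-06) on day 1, −1.29 (2.44-fold, adjusted p = 5.22e-05) on day 2, −1.05 (2.07-fold, adjusted p = 0.000227) on day 4, and −1.55 (2.93-fold, adjusted p = 1.73e-05) on day 6 and an SE of 0.20. Desmin message fell in D6-deficient skin too, with −2.33 (5.02-fold, adjusted p = 1.78e-08) on day 1, −1.82 (3.54-fold, adjusted p = 2.26e-07) on day 2, −1.42 (2.68-fold, adjusted p = 4.72e-06) on day 4, and −2.59 (6.03-fold, adjusted p = 7.26e-09) on day 6. The dim second Des probe set moved far less, at −0.11 in WT skin on day 1 and −0.51 in D6-deficient skin on day 6. Ttn fell by 3.27 (SE 0.38, adjusted p = 8.1e-07) in D6-deficient skin at day 1, and its WT change was −2.19 (adjusted p = 0.000185). Myot was at −2.79 (adjusted p = 2.03e-08) in D6-deficient skin on day 6 and at −1.78 (adjusted p = 2.12e-05) in WT skin. Myoz1 was at −1.60 (adjusted p = 2.56e-06) in WT skin on day 2 and stood at −2.08 (adjusted p = 2.44e-08) in D6-deficient skin. Actn2 did not pass in WT skin at day 4, at −0.45 (adjusted p = 0.217), and was at −1.44 (adjusted p = 0.000555) at day 1. Ldb3 passed there at −0.73 (adjusted p = 0.0408), and no longer did with any 1 of 5 of the 6 arrays left out, all but WT day 0 replicate 2, at values from −0.78 to −0.64. Tcap (telethonin) was at −0.78 (adjusted p = 0.0203) in WT skin at day 2, and no longer passed without WT day 0 replicate 3 (−0.63), WT day 2 replicate 1 (−0.69) or WT day 2 replicate 2 (−0.78). On day 4 it no longer passed in WT skin (−0.76) without WT day 0 replicate 3 (−0.61) or WT day 4 replicate 3 (−0.53), nor in D6-deficient skin (−0.77) without D6-deficient day 0 replicate 3 (−0.55) or D6-deficient day 4 replicate 2 (−0.69).

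A muscle fibre contracts when its surface channel opens the calcium store of the sarcoplasmic reticulum. Cacna1s and Cacng1 encode parts of the channel in the membrane, Ryr1 the release channel of the store, Trdn and Jph1 proteins that hold the parts together, Casq1 and Pvalb calcium binding proteins, Atp2a1 the pump that refills the store, and Cav3 the caveolin of the fibre membrane. Release channel, pump and buffer messages all fell after TPA. Of the 9 calcium and membrane genes, 5, 6, 2 and 4 were called lower in WT skin at days 1, 2, 4 and 6, with medians of −1.65, −1.70, −1.37 and −1.32. D6-deficient counts were 7, 7, 3 and 7, with medians of −2.48, −2.31, −1.56 and −2.31.

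WT arrays read Ryr1 (gene 20190) at 10.56, 10.77 and 11.10 on day 0, 8.28, 8.47 and 9.43 on day 1, 9.09, 9.28 and 8.92 on day 2, 9.65, 9.04 and 8.87 on day 4, and 9.18, 8.45 and 9.78 on day 6. D6-deficient arrays read Ryr1 at 10.93, 10.82 and 10.83 on day 0, 8.62, 7.80 and 7.99 on day 1, 8.54, 8.40 and 8.71 on day 2, 9.34, 8.44 and 8.95 on day 4, and 8.43, 7.84 and 8.23 on day 6. The day 0 arrays of both genotypes lay above every array after TPA, and WT day 1 replicate 3 and WT day 6 replicate 3 were the high arrays of their groups. Ryr1 was called lower on all 4 days in WT skin, with −2.08 (4.23-fold, adjusted p = 2.53e-05) on day 1, −1.71 (3.28-fold, adjusted p = 0.000175) on day 2, −1.62 (3.08-fold, adjusted p = 0.00015) on day 4, and −1.67 (3.18-fold, adjusted p = 0.000386) on day 6 and an SE of 0.30. In D6-deficient skin it was called lower on all 4 days too, with −2.72 (6.61-fold, adjusted p = 4.26e-07) on day 1, −2.31 (4.95-fold, adjusted p = 2.07e-06) on day 2, −1.95 (3.86-fold, adjusted p = 1.39e-05) on day 4, and −2.69 (6.46-fold, adjusted p = 5.96e-07) on day 6. Cacna1s gave the smallest adjusted p among the members in both day 1 comparisons, at −2.06 (SE 0.23, adjusted p = 1.36e-06) in WT and −2.72 (SE 0.23, adjusted p = 1.54e-08) in D6-deficient skin. Atp2a1 was at −1.61 (adjusted p = 1.74e-05) in WT skin on day 2 and at −2.50 (adjusted p = 1.68e-08) in D6-deficient skin. Pvalb had the largest D6-deficient change of day 2 among the members' brightest probe sets, at −2.83 (SE 0.28, adjusted p = 3.73e-08), with Ttn also at −2.83. WT skin had −1.88 (adjusted p = 2.38e-05) for Pvalb. Casq1 was at −2.15 (adjusted p = 5.55e-06) in WT and −2.40 (adjusted p = 4.77e-07) in D6-deficient skin on day 2. Trdn was at −2.004 (adjusted p = 1.22e-05) and −2.58 (adjusted p = 2.26e-07) on day 1. Jph1 moved less, at −0.55 (adjusted p = 0.0217) in WT skin on day 2, and no longer passed without WT day 0 replicate 3 (−0.39), WT day 2 replicate 1 (−0.52) or WT day 2 replicate 2 (−0.51). It also no longer passed on day 1 in WT skin (−0.67) without WT day 0 replicate 3 (−0.51) and on day 4 in D6-deficient skin (−0.56) without D6-deficient day 0 replicate 3 (−0.31). In WT skin on day 4 Jph1 did not pass, at −0.40 (adjusted p = 0.0726).

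Contraction is fed by creatine phosphate, glycogen and oxygen. Ckm and Ckmt2 encode the cytosolic and mitochondrial creatine kinases of muscle, Eno3 muscle enolase, Pygm muscle glycogen phosphorylase and Mb the oxygen store myoglobin. All 5 fell on every day after TPA in both genotypes. Of the 5 energy and oxygen genes, 2, 2, 1 and 2 were called lower in WT skin at days 1, 2, 4 and 6, with medians of −1.23, −1.31, −1.21 and −1.13. D6-deficient counts were 4, 4, 2 and 5, with medians of −1.98, −1.76, −1.24 and −2.07. The Ckm window, chr7:19410844-19411093 on the plus strand, held 1 E-box.

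Ckm: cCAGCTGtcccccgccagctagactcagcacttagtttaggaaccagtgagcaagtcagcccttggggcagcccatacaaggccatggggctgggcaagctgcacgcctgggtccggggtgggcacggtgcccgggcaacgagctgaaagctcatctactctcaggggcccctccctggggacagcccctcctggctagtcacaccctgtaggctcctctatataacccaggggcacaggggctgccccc

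WT arrays read Ckm (gene 12715) at 13.90, 13.86 and 14.01 on day 0, 12.45, 12.52 and 13.09 on day 1, 12.74, 12.80 and 12.63 on day 2, 13.23, 13.09 and 12.76 on day 4, and 12.82, 12.53 and 13.02 on day 6. D6-deficient arrays read Ckm at 13.69, 13.71 and 13.94 on day 0, 12.11, 11.92 and 11.97 on day 1, 12.08, 12.09 and 12.21 on day 2, 13.12, 12.51 and 12.57 on day 4, and 12.27, 11.77 and 12.42 on day 6. Every array after TPA lay below every day 0 array of its genotype, and the WT and D6-deficient arrays of day 4 overlapped. Ckm fell in WT skin, with −1.23 (2.35-fold, adjusted p = 2.42e-05) on day 1, −1.20 (2.29-fold, adjusted p = 2.63e-05) on day 2, −0.90 (1.86-fold, adjusted p = 0.000315) on day 4, and −1.13 (2.19-fold, adjusted p = 0.000106) on day 6 and an SE of 0.18, so that it passed the test on all 4 days without reaching 3-fold. Creatine kinase message fell in D6-deficient skin, with −1.78 (3.44-fold, adjusted p = 1.11e-07) on day 1, −1.65 (3.15-fold, adjusted p = 1.47e-07) on day 2, −1.04 (2.06-fold, adjusted p = 4.82e-05) on day 4, and −1.63 (3.09-fold, adjusted p = 4.5e-07) on day 6.

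WT arrays read Mb (gene 17189) at 12.57, 12.87 and 12.85 on day 0, 11.93, 11.47 and 12.37 on day 1, 11.93, 11.84 and 11.83 on day 2, 11.77, 11.57 and 11.33 on day 4, and 12.31, 11.71 and 12.26 on day 6. D6-deficient arrays read Mb at 12.95, 12.51 and 12.90 on day 0, 11.73, 11.11 and 11.49 on day 1, 10.94, 11.63 and 11.32 on day 2, 11.62, 11.66 and 11.52 on day 4, and 10.86, 10.72 and 10.92 on day 6. All arrays after TPA were below day 0 in both genotypes, with the D6-deficient arrays of day 6 the lowest group. The WT differences of Mb were −0.84 (1.79-fold, adjusted p = 0.00373) on day 1, −0.90 (1.86-fold, adjusted p = 0.00191) on day 2, −1.21 (2.31-fold, adjusted p = 4.53e-05) on day 4, and −0.67 (1.59-fold, adjusted p = 0.0193) on day 6, with an SE of 0.20. Those in D6-deficient skin were −1.34 (2.53-fold, adjusted p = 2.13e-05) on day 1, −1.49 (2.81-fold, adjusted p = 3.33e-06) on day 2, −1.19 (2.28-fold, adjusted p = 4.35e-05) on day 4, and −1.95 (3.86-fold, adjusted p = 2.09e-07) on day 6. The WT day 6 difference no longer passed without WT day 0 replicate 2 (−0.62), WT day 0 replicate 3 (−0.63) or WT day 6 replicate 2 (−0.48). The dim second Mb probe set stood at 0.00 in D6-deficient skin on day 6. With both Mb probe sets averaged, the WT changes of day 2 and day 6 no longer passed. Ckmt2 was at −1.77 (adjusted p = 0.000299) in WT and −2.89 (adjusted p = 3.43e-07) in D6-deficient skin on day 6. Pygm was at −1.65 (adjusted p = 1.47e-05) and −1.96 (adjusted p = 1.17e-06) on day 4. Eno3 was at −1.21 (adjusted p = 0.000146) and −1.98 (adjusted p = 1.66e-07) on day 1.

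**Figure D2:**
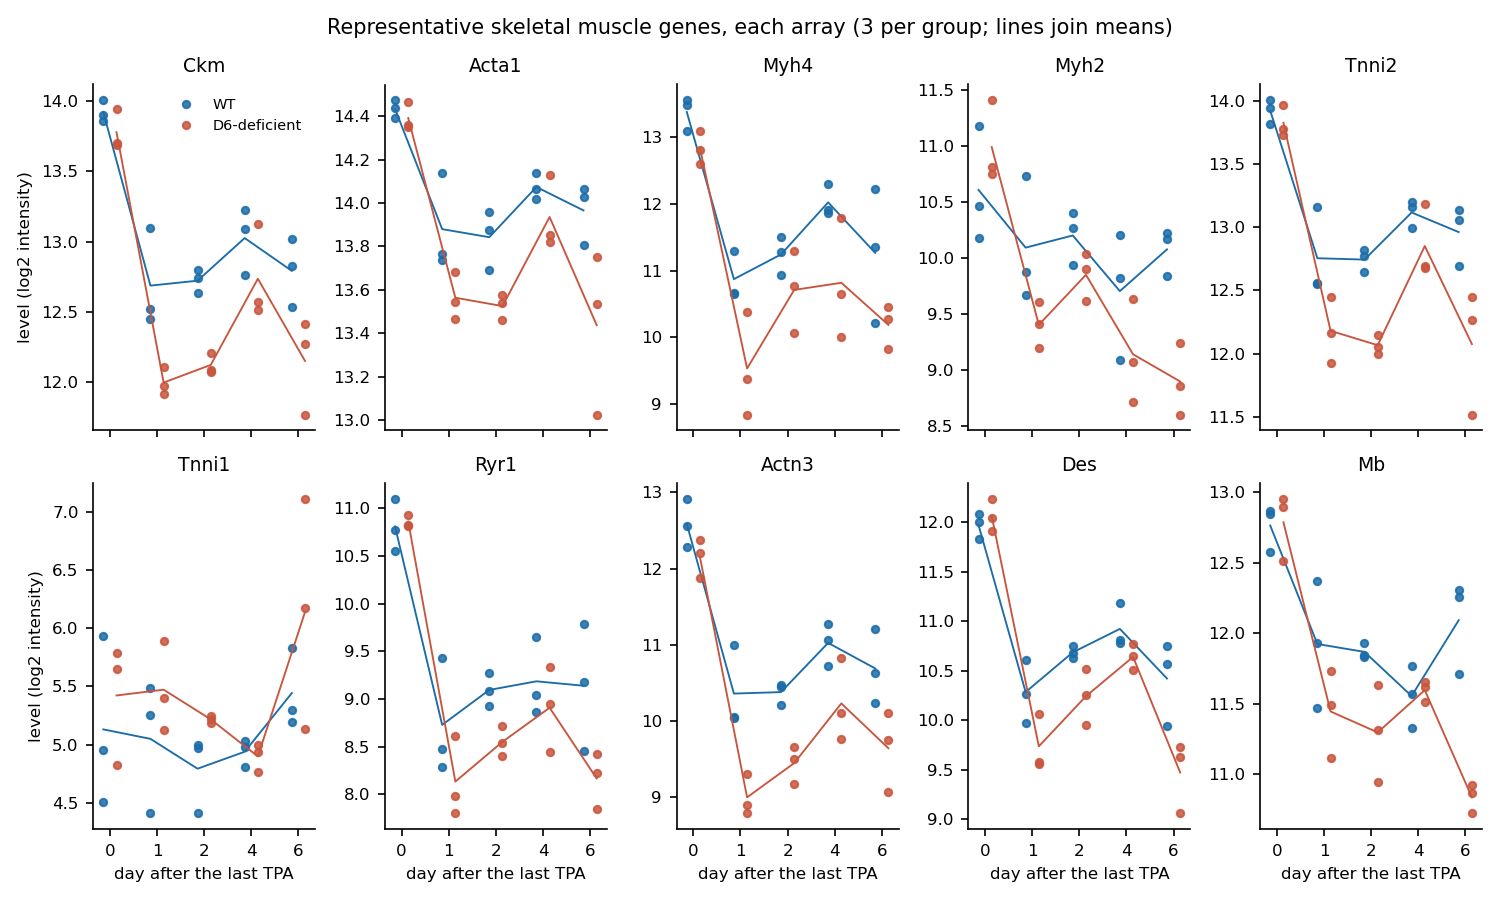
Log2 intensity of the 10 representative members in each of the 30 arrays, by day on an evenly spaced axis, WT and D6-deficient arrays side by side. Ckm reads 13.69 to 14.01 at day 0 and 11.77 to 13.23 after TPA, and Tnni1 stays between 4.41 and 7.11.

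On day 4 some members besides the slow troponins stood apart from the rest. Mybph rose in WT skin while the other thick filament genes were low, and Cav3 and Cacng1 were back near control level. These 3 genes and the other muscle genes named here were chosen after the values were seen. The Mybph window, chr1:134193198-134193447 on the plus strand, held 1 E-box and, on the opposite strand, 1 match to TATAAA. The gene is listed from 134193418, so the end of this window lies after that start. The Cav3 window, chr6:112459255-112459504 on the plus strand, held 2 E-boxes.

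Mybph: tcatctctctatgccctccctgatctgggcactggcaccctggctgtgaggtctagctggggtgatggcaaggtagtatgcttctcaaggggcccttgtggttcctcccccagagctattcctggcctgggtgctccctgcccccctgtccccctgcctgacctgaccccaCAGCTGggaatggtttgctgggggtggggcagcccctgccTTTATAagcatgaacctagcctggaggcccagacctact

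Cav3: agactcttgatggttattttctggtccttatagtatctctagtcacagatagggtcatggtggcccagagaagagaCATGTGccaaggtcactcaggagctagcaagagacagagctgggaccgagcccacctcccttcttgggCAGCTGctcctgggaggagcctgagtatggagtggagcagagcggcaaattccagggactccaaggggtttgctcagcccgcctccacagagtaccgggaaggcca

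WT arrays read Mybph (gene 53311) at 8.12, 8.85 and 8.45 on day 0, 6.91, 6.75 and 7.55 on day 1, 7.79, 7.42 and 6.45 on day 2, 10.11, 9.47 and 10.52 on day 4, and 7.50, 6.69 and 7.30 on day 6. D6-deficient arrays read Mybph at 8.49, 6.88 and 6.88 on day 0, 6.81, 6.11 and 6.90 on day 1, 6.13, 6.05 and 5.79 on day 2, 8.65, 7.44 and 6.89 on day 4, and 6.68, 5.32 and 7.17 on day 6. The 3 WT arrays of day 4 lay above all other arrays, and the D6-deficient arrays of day 4 overlapped with their day 0. Mybph rose in WT skin on day 4 by 1.56 (SE 0.48, adjusted p = 0.0112), 2.96-fold, short of the fold threshold, and without WT day 4 replicate 3 the rise was 1.32 and no longer passed. D6-deficient skin differed by 0.24 (adjusted p = 0.72), and between the genotypes the change of Mybph since day 0 differed by −1.32 (SE 0.67, adjusted p = 0.491), which did not pass.

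WT arrays read Cav3 (gene 12391) at 8.71, 8.88 and 8.77 on day 0, 6.99, 6.80 and 7.61 on day 1, 7.31, 7.62 and 6.95 on day 2, 8.90, 8.49 and 8.88 on day 4, and 8.02, 7.40 and 7.73 on day 6. D6-deficient arrays read Cav3 at 8.67, 8.15 and 8.52 on day 0, 6.68, 6.54 and 6.70 on day 1, 6.65, 6.62 and 6.65 on day 2, 8.88, 8.40 and 8.39 on day 4, and 7.05, 6.16 and 6.73 on day 6. On days 1, 2 and 6 all arrays lay below day 0, and on day 4 they overlapped with day 0 in both genotypes. The day 4 difference of Cav3 was −0.03 (adjusted p = 0.929) in WT and 0.11 (adjusted p = 0.712) in D6-deficient skin, against −1.49 (adjusted p = 2.17e-05) and −1.80 (adjusted p = 7.33e-07) on day 2. WT arrays read Cacng1 (gene 12299) at 8.09, 7.94 and 8.37 on day 0, 7.14, 7.44 and 7.10 on day 2 and 8.39, 8.29 and 8.21 on day 4. D6-deficient arrays read Cacng1 at 8.02, 7.51 and 8.07, 6.94, 7.35 and 7.12 and 8.15, 7.91 and 7.80 on the same days. Its day 4 arrays overlapped with day 0 in both genotypes, and those of day 2 lay below. The day 4 difference of Cacng1 was 0.16 (adjusted p = 0.504) in WT and 0.09 (adjusted p = 0.739) in D6-deficient skin. Of the other muscle genes, Ankrd2, a stretch responsive Z disc gene, was called higher on day 4 in both genotypes, at 2.44 (adjusted p = 3.39e-06) and 2.10 (adjusted p = 1.84e-05). Csrp3 (muscle LIM protein) was at 1.13 (adjusted p = 0.0101) in WT and 0.00 (adjusted p = 1.0) in D6-deficient skin, with a contrast relative to day 0 of −1.13 (adjusted p = 0.363). Kbtbd5, a sarcomere protein gene, was at 1.03 (adjusted p = 0.00384) and −0.01 (adjusted p = 0.982), with a relative contrast of −1.04 (adjusted p = 0.258).

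**Figure D3:**
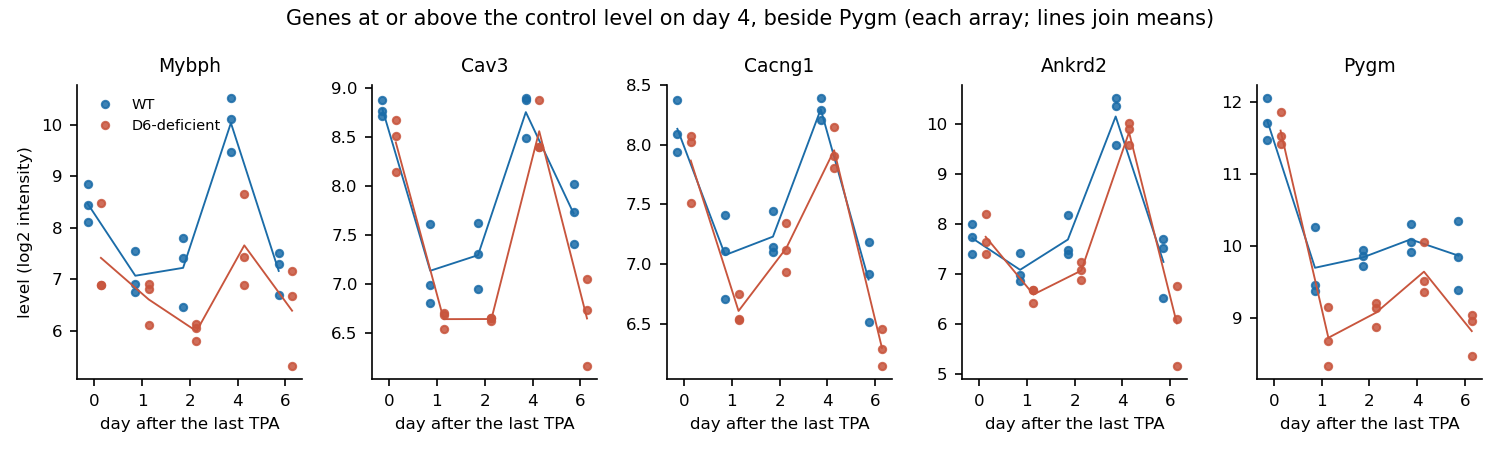
Log2 intensity in each array of Mybph, Cav3, Cacng1, Ankrd2 and, for comparison, Pygm, by day on an evenly spaced axis in WT and D6-deficient skin.

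Most members took their lowest group mean in D6-deficient skin after TPA. Of the 40 genes, 16 were lowest in D6-deficient skin on day 6, 15 on day 1 and 6 on day 2. Tnnc1 and Tnni1 were lowest in WT skin on day 2 and Tnnt1 in D6-deficient skin on day 0. The highest group mean was that of WT day 0 for 25 genes and of D6-deficient day 0 for 10. Cacng1 and Mybph were highest in WT skin on day 4, Tnni1 and Tnnt1 in D6-deficient skin on day 6, and Tnnc1 in WT skin on day 1. In the median, bright genes moved less than genes of middle level. Myh4, above 13 at WT day 0, was an exception, with the largest WT changes of the 40 genes by brightest probe set on days 1 and 6 (−2.50 and −2.11). In WT skin the 12 genes above 13 at day 0, Ckm and Acta1 among them, had median changes of −1.19, −1.19, −0.85 and −1.05 at days 1, 2, 4 and 6, and the 24 genes from 7 to 13 had −1.75, −1.60, −1.38 and −1.63. In D6-deficient skin the 11 genes above 13 had −1.65, −1.65, −0.98 and −1.63, and the 25 from 7 to 13 had −2.48, −2.08, −1.71 and −2.52. The part of signal compression near the top of the array's range was not tested. Probe sets of some members differed in the call in at least 1 comparison of a day with day 0: Ldb3, Des, Ryr1, Mybpc1, Ttn, Myom2, Trdn, Tnni2, Myh4, Myh1, Myoz1 and Mb. Ldb3 ran from −2.10 to −0.89 over 3 probe sets in D6-deficient skin on day 2. Ryr1 ran from −1.62 to −0.76 over 2 probe sets in WT skin on day 4, and Ttn from −1.82 to −1.09 over 5 probe sets. Mybpc1 ran from −1.90 to −0.99 over 3 probe sets in D6-deficient skin on day 2 and Myh1 from −1.62 to −0.77 over 4 probe sets. On day 4 in D6-deficient skin Myh4 ran from −2.02 to −1.26 over 2 probe sets, Trdn from −1.91 to −1.56 over 4 probe sets and Myoz1 from −1.88 to −1.51 over 2 probe sets. Tnni2 ran from −1.65 to −1.25 over 2 probe sets in D6-deficient skin on day 1, and Myom2 from −1.60 to −1.42 over 3 probe sets in WT skin on day 2. The opposite directions that passed were those of Mb in WT skin on day 2.

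In control skin the genotypes had similar muscle message. No member passed the test, and Ckm, Acta1 and Ryr1 overlapped between the genotypes. On day 0 limma called 0 of 62 member probe sets, against 0.122% of all tested, and 0 passed as lower, against 0.855%. At an unadjusted 0.05 the counts lower and higher were 1 (7.59%) and 0 (6.69%) by limma and 0 (6.64%) and 3 (7.02%) by the methods' t-test, with 0 (0.00833%) after adjustment. Over the 40 genes the median was −0.09, and 5 genes had all D6-deficient arrays below all WT arrays, against 10.8% of all tested. The only gene wholly higher in the D6-deficient arrays was Myom2, against 3891 of the 36029 tested probe sets. The smallest adjusted p was that of Mybph, at −1.06 (adjusted p = 0.304). Myh4 had all D6-deficient arrays below the WT arrays, by −0.54 (adjusted p = 0.627). A share near that of all tested probe sets is no result about the members.

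On day 1 most members were lower in D6-deficient than in WT skin without any passing the test. The largest by brightest probe set was the alpha actinin of fast fibres. In this comparison limma called 0 of 62 member probe sets, against 0.0139% of all tested, and 0 passed as lower, against 0.0361%. At an unadjusted 0.05 the counts lower and higher were 41 (3.96%) and 0 (4.05%) by limma and 11 (3.59%) and 0 (3.88%) by the methods' t-test, with 0 (0.0%) after adjustment. Over the 40 genes the median was −0.62, and 22 genes had all D6-deficient arrays below all WT arrays, against 6.89% of all tested. Actn3 had the smallest adjusted p, at −1.36 (SE 0.29, adjusted p = 0.0906), with no overlap of the genotypes, and Ckm was at −0.69 (adjusted p = 0.251). For the change from day 0, limma called 0 member probe sets, against 0.00278% of all tested, and 0 passed, against 0.0194%. Unadjusted, the counts lower and higher were 13 (4.83%) and 0 (4.87%) by limma and 4 (9.7%) and 0 (11.7%) by the methods' t-test, with 0 (0.0%) after adjustment. The median of the genes was −0.57 and the smallest adjusted p was 0.27, for Ryr1.

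On day 2 members of the fast fibre were lower in D6-deficient skin, among them the calcium buffer parvalbumin and the calcium pump. The differences were below 3-fold. Directly compared, limma called 0 of 62 member probe sets, against 0.572% of all tested, and 10 passed as lower, against 1.99%. At an unadjusted 0.05 the counts lower and higher were 34 (8.12%) and 0 (7.4%) by limma and 37 (7.76%) and 0 (6.74%) by the methods' t-test, with 0 (0.00833%) after adjustment. Over the 40 genes the median was −0.56, and 32 genes had all D6-deficient arrays below all WT arrays, against 11.9% of all tested. The 8 genes that passed were Pvalb −1.11 (adjusted p = 0.0181), Atp2a1 −0.92 (adjusted p = 0.0201), Myoz1 −0.77 (adjusted p = 0.0218), Tnnc2 −0.66 (adjusted p = 0.0265), Mylpf −0.76 (adjusted p = 0.03), Cacna1s −0.87 (adjusted p = 0.0305), Tnni2 −0.68 (adjusted p = 0.0458) and Tnnt3 −0.71 (adjusted p = 0.0474). Leaving out any 1 of the 6 arrays ended the result of Myoz1 (values −0.80 to −0.75), Tnnc2 (−0.70 to −0.63), Cacna1s (−0.94 to −0.80), Tnni2 (−0.73 to −0.64) and Tnnt3 (−0.74 to −0.67). Pvalb no longer passed without WT day 2 replicate 1 (−0.96), WT day 2 replicate 3 (−1.13), D6-deficient day 2 replicate 2 (−0.95) or D6-deficient day 2 replicate 3 (−1.09). Atp2a1 no longer passed without WT day 2 replicate 1 (−0.89), WT day 2 replicate 2 (−0.89) or D6-deficient day 2 replicate 2 (−0.80). Mylpf no longer passed with any 1 of the 6 arrays but WT day 2 replicate 3 left out, at −0.78 to −0.66. Tnni2 and Tnnt3 also no longer passed without the filter on low values, with arrays centred on their medians or with the hybridization control sets as a covariate. Tnni1 was the 1 gene of 40 wholly higher in D6-deficient arrays, against 3764 of the 36029 tested probe sets. As changes from day 0, limma called 0 member probe sets, against 1.11% of all tested, and 0 passed, against 5.4%. Unadjusted, the counts lower and higher were 10 (8.13%) and 0 (8.77%) by limma and 39 (14.1%) and 1 (13.8%) by the methods' t-test, with 14 (5.68%) after adjustment. The median of the genes was −0.49 and the smallest adjusted p was 0.134, for Atp2a1. By the methods' t-test the 14 that passed after adjustment were all lower. Among them were Tnni2, Tnnc2, Tnnt3, Atp2a1 and Myoz1 of the 8 genes above. That t-test takes the day 0 means as fixed and leaves out the spread of the day 0 arrays. Its 14 therefore do not show that the change since day 0 differed.

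On day 4 the median difference between the genotypes was nearer to 0 than on days 1, 2 and 6, and 1 member, Mybph, passed. WT skin carried more message for this thick filament protein than D6-deficient skin. Between the day 4 arrays limma called 1 of 62 member probe sets, against 0.0777% of all tested, and 1 passed as lower, against 0.225%. At an unadjusted 0.05 the counts lower and higher were 11 (5.02%) and 0 (5.03%) by limma and 4 (3.66%) and 0 (4.04%) by the methods' t-test, with 0 (0.0%) after adjustment. Over the 40 genes the median was −0.33, and 6 genes had all D6-deficient arrays below all WT arrays, against 7.37% of all tested. The called gene was Mybph, at −2.38 (SE 0.48, adjusted p = 0.0174) and 5.2-fold, with all D6-deficient arrays below all WT arrays. It no longer passed without WT day 4 replicate 1 (−2.34), WT day 4 replicate 3 (−2.13), D6-deficient day 4 replicate 2 (−2.27) or D6-deficient day 4 replicate 3 (−1.99), nor from the arrays of day 4 alone or by the methods' t-test after adjustment, so that the count was 0 there. Next in size were Myh4 −1.20, Actn3 −0.79, Ldb3 −0.73 and Actn2 −0.68, and nearest to 0 Tnnc1 0.01, Tnni1 −0.04, Mb 0.04, Myom2 0.07 and Myh1 −0.08. For the changes since day 0, limma called 0 member probe sets, against 0.153% of all tested, and 0 passed, against 0.608%. Unadjusted, the counts lower and higher were 1 (5.32%) and 0 (5.64%) by limma and 5 (9.43%) and 0 (9.44%) by the methods' t-test, with 0 (0.0194%) after adjustment. The median of the genes was −0.23 and the smallest adjusted p was 0.395, for Myh2.

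On day 6 myoglobin, the calcium pump, the membrane caveolin and muscle enolase were lower in D6-deficient than in WT skin. Most other members lay lower too, without passing. On that day limma called 0 of 62 member probe sets, against 0.0167% of all tested, and 5 passed as lower, against 0.0999%. At an unadjusted 0.05 the counts lower and higher were 51 (4.8%) and 1 (3.57%) by limma and 27 (2.91%) and 0 (1.64%) by the methods' t-test, with 0 (0.0%) after adjustment. Over the 40 genes the median was −0.95, and 33 genes had all D6-deficient arrays below all WT arrays, against 5.65% of all tested. The 4 genes that passed were Mb at −1.26 (SE 0.20, adjusted p = 0.00939), Atp2a1 at −1.20 (SE 0.23, adjusted p = 0.0363), Cav3 at −1.07 (SE 0.22, adjusted p = 0.0451) and Eno3 at −1.02 (SE 0.21, adjusted p = 0.0451). Mb no longer passed without WT day 6 replicate 1 (−1.15), WT day 6 replicate 3 (−1.17) or D6-deficient day 6 replicate 2 (−1.20). Without the following arrays Atp2a1 no longer passed: WT day 6 replicate 1 (−1.20), WT day 6 replicate 3 (−0.96) or D6-deficient day 6 replicate 2 (−1.01). Cav3 no longer passed without WT day 6 replicate 1 (−0.92), WT day 6 replicate 3 (−1.07) or D6-deficient day 6 replicate 2 (−0.83). Eno3 no longer passed without WT day 6 replicate 1 (−0.99), WT day 6 replicate 3 (−0.91), D6-deficient day 6 replicate 1 (−1.04) or D6-deficient day 6 replicate 2 (−0.80). Atp2a1, Mb, Cav3 and Eno3 no longer passed from the arrays of day 6 alone, and Cav3 and Eno3 not with arrays centred or with the control sets as a covariate. The count called was 1 without WT day 6 replicate 2 or without D6-deficient day 6 replicate 1. Relative to day 0, limma called 0 member probe sets, against 0.00278% of all tested, and 0 passed, against 0.025%. Unadjusted, the counts lower and higher were 32 (4.0%) and 1 (4.01%) by limma and 22 (5.53%) and 0 (5.49%) by the methods' t-test, with 0 (0.0%) after adjustment. The median of the genes was −0.75 and the smallest adjusted p was 0.137, for Mb.

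**Figure D4:**
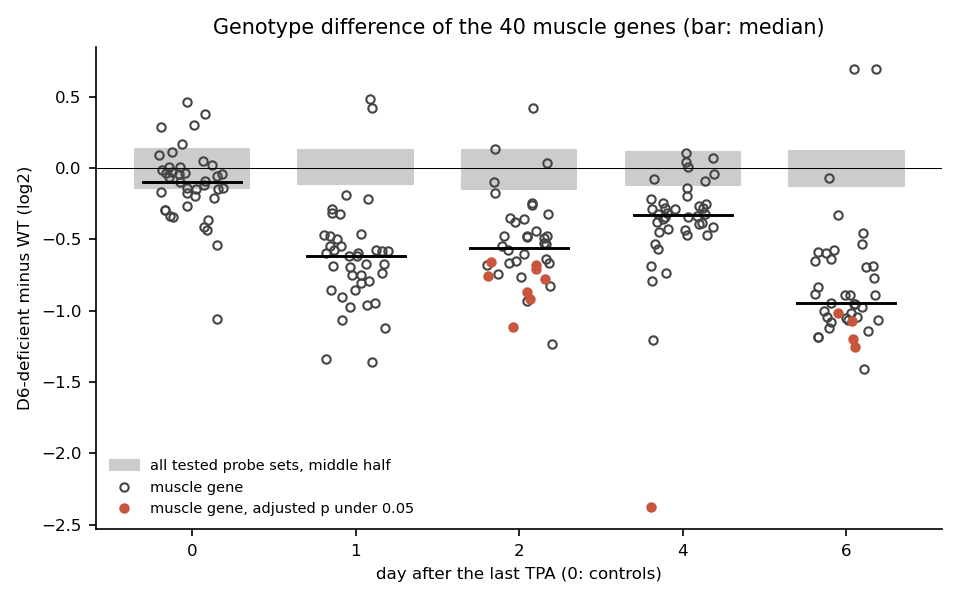
Log2 difference of D6-deficient from WT skin for the 40 members on days 0, 1, 2, 4 and 6, evenly spaced. Medians were −0.09, −0.62, −0.56, −0.33 and −0.95, and Mybph on day 4 at −2.38 is the called gene.

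The members were compared with each other and with every other gene across the arrays. Over the 30 arrays, 30 of 40 members had a Pearson correlation over 0.9 with the mean of the other members, with a median of 0.96 and of 0.87 within groups, and 275 of all tested probe sets (0.763%) had one over 0.9. The arrays share their groups, so the correlation is a description. The lowest were Tnnt1 (−0.35), Tnni1 (−0.31), Tnnc1 (0.23), Mybph (0.58), Myh2 (0.74), Cacng1 (0.77) and Cav3 (0.83). The 10 non-members with the highest correlation to the members' mean, with r, Spearman's rho and r within groups over 30 arrays, were Eef1a2 (0.99, 0.99, 0.97), Srl (0.99, 0.99, 0.94), Cox6a2 (0.99, 0.98, 0.93), Tpm2 (0.99, 0.97, 0.89), Jsrp1 (0.99, 0.98, 0.87), Hfe2 (0.99, 0.97, 0.93), Rragd (0.98, 0.96, 0.93), Pgam2 (0.98, 0.98, 0.95), Mypn (0.98, 0.96, 0.82), and Tmod4 (0.98, 0.97, 0.89). Of these, Rragd and Tmod4 are not on the list of other skeletal muscle genes.

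Other muscle genes and markers of the other cells of the skin are given beside the members, and their part in the member values was not tested. Summed levels are log2 of summed intensities at days 0, 1, 2, 4 and 6, and counts are of genes called at days 1, 2, 4 and 6. Of all tested probe sets, 12.7%, 15.0%, 21.8% and 11.9% passed as lower in WT skin, and 11.4%, 11.0%, 17.3% and 10.2% as higher. In D6-deficient skin 18.1%, 20.6%, 22.4% and 15.7% passed as lower, and 18.2%, 17.5%, 18.8% and 16.0% as higher. A list's share near these is no result about its cells. Of 62 other skeletal muscle genes, 56 were tested, Myl2 lay below the filter and Tpm2 was the brightest (12.07). Called lower were 29, 22, 5 and 19 in WT and 43, 41, 14 and 45 in D6-deficient skin, with medians of −1.59, −1.46, −1.01 and −1.44 and −2.15, −1.97, −1.25 and −2.17, and Ankrd2 was the 1 called higher on day 4 in each. The summed level was 16.49, 15.01, 15.19, 15.71 and 15.16 in WT and 16.40, 14.43, 14.62, 15.25 and 14.39 in D6-deficient skin. The 5 called lower on day 4 in WT skin were Actc1, Ampd1, Dhrs7c, Fbxo32 and Lmod3, chosen after the values were seen. The largest called changes were Ampd1 −2.33, Lmod3 −2.37 and Actc1 −2.40 on day 1, Phka1 −2.01, Actc1 −2.28 and Dhrs7c −2.37 on day 2, Actc1 −1.92, Fbxo32 −2.18 and Ankrd2 2.44 on day 4 and Dhrs7c −2.17, Actc1 −2.35 and Lmod2 −2.45 on day 6 in WT skin. In D6-deficient skin they were Cmya5 −2.97, Lmod3 −3.06 and Trim63 −3.13, Lmod2 −2.53, Lmod3 −2.92 and Trim63 −3.005, Ankrd2 2.10, Lmod3 −2.24 and Fbxo32 −2.50 and Lmod3 −3.11, Lmod2 −3.13 and Trim63 −3.20. Between genotypes 9 of the 56 passed as lower on day 2, against 1.99% of all tested, and 5 on day 6, against 0.0999%.

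Myogenic factors and satellite cell markers (8 of 10 tested, Myf5 below the filter, Myf6 brightest at 7.58) were called lower in 2, 0, 0 and 1 in WT and 2, 3, 1 and 3 in D6-deficient skin, and summed to 9.95, 8.77, 8.81, 9.34 and 8.73 in WT and 10.09, 8.45, 8.53, 8.96 and 8.28 in D6-deficient skin. Myf6 was called at −1.65 and −1.78 on days 1 and 6 in WT skin and at −2.72, −2.43, −1.60 and −3.06 in D6-deficient skin, Myog at −1.89 on day 1 in WT and −1.86, −1.74 and −2.16 on days 1, 2 and 6 in D6-deficient skin, and Myod1 at −2.04 and −1.92 on days 2 and 6 in D6-deficient skin. Genes of developing or denervated muscle (9 of 10 tested, Myh3 below the filter, Gadd45a brightest at 8.21) had 0 called, with 2, 2, 2 and 2 in WT and 2, 2, 2 and 2 in D6-deficient skin passing as lower and 0, 1, 2 and 1 in WT and 1, 1, 2 and 1 in D6-deficient skin as higher, and summed to 9.97, 9.97, 9.83, 10.12 and 10.03 in WT and 9.90, 9.99, 10.05, 10.27 and 10.05 in D6-deficient skin. The 5 cardiac muscle genes were dim, Tnni3 the brightest at 4.81, with Myl7 called higher on day 4 in D6-deficient skin (1.76), and summed to 6.96, 6.66, 7.08, 7.10 and 6.65 in WT and 6.96, 6.57, 7.20, 7.04 and 6.73 in D6-deficient skin. Of 8 smooth muscle genes (Acta2 brightest at 11.85), Lmod1 was called lower on day 4 in WT skin (−1.71) and on all days in D6-deficient skin (−1.61, −1.62, −1.65 and −1.71), 5, 5, 7 and 3 in WT and 4, 6, 6 and 3 in D6-deficient skin passed as lower, and the sum was 12.94, 12.53, 12.45, 12.56 and 12.77 in WT and 12.96, 12.55, 12.49, 12.44 and 13.01 in D6-deficient skin.

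White adipocyte markers (5 of 6 tested, Fabp4 brightest at 14.07) summed to 15.48, 15.47, 15.25, 14.72 and 15.40 in WT and 15.19, 15.31, 15.11, 15.02 and 15.22 in D6-deficient skin, with Retn called lower on day 4 in WT skin (−1.61). Of the brown adipocyte markers Ucp1 lay below the filter, and Cidea (8.97) was called lower on all days, at −2.14, −1.77, −2.23 and −1.82 in WT and −3.67, −3.49, −3.36 and −2.62 in D6-deficient skin, with sums of 10.79, 8.68, 9.05, 8.59 and 8.99 in WT and 11.38, 7.78, 7.96, 8.10 and 8.80 in D6-deficient skin. The 6 fibroblast markers (Col3a1 brightest at 14.44) had 0 called by limma, with 0, 0, 2 and 0 in WT and 0, 0, 3 and 1 in D6-deficient skin passing as lower and 0, 0, 1 and 0 in WT and 1, 1, 1 and 0 in D6-deficient skin as higher, and summed to 16.18, 16.23, 16.01, 15.92 and 16.24 in WT and 16.10, 16.16, 16.10, 15.73 and 16.15 in D6-deficient skin. Of 4 keratinocyte markers (Krt14 brightest at 13.11), Krt1 was called higher on days 1 and 2 in WT skin (1.72 and 1.87), Krt14 on day 2 (1.65), and on day 4 Krt1 (−2.52; −4.46) and Krt10 (−4.27; −5.52) were called lower in WT and D6-deficient skin. Their sum was 14.61, 15.39, 15.63, 14.11 and 15.24 in WT and 15.10, 15.42, 15.53, 13.41 and 15.17 in D6-deficient skin. The 4 endothelial markers (Pecam1 brightest at 9.65) had 0 called, with 2, 3, 2 and 2 in WT and 3, 0, 0 and 3 in D6-deficient skin passing as lower and 0, 0, 0 and 0 in WT and 0, 1, 2 and 0 in D6-deficient skin as higher, and summed to 11.10, 10.64, 10.58, 10.89 and 10.63 in WT and 10.90, 10.47, 11.05, 11.27 and 10.33 in D6-deficient skin.

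Neutrophil markers (4 of 5 tested, S100a9 brightest at 12.98) were called higher in 2, 2, 4 and 2 in WT and 2, 4, 4 and 0 in D6-deficient skin, and summed to 10.35, 14.15, 15.44, 15.62 and 12.998 in WT and 12.37, 14.25, 15.59, 15.72 and 13.49 in D6-deficient skin. S100a8 and S100a9 were called on all 4 days in WT skin and on days 1, 2 and 4 in D6-deficient skin, and Csf3r and Mmp8 on day 4 in WT and on days 2 and 4 in D6-deficient skin. Between genotypes S100a8 was called higher in D6-deficient skin on day 0 (2.41 (adjusted p = 0.0352)), and Csf3r (1.71 (adjusted p = 0.000121)) and Mmp8 (3.13 (adjusted p = 1.1e-05)) on day 2. Of the macrophage markers (3 of 4 tested, Csf1r brightest at 12.58), Cd68 was called higher on day 2 in D6-deficient skin (2.23), and the sum was 13.44, 13.02, 13.34, 12.97 and 12.94 in WT and 13.07, 12.93, 13.63, 12.57 and 12.96 in D6-deficient skin. The 3 T cell markers (Cd3d brightest at 8.40) had 0 called and 1 passing as higher in each of the 8 comparisons, and summed to 8.91, 9.70, 9.55, 9.18 and 9.70 in WT and 8.88, 9.63, 9.50, 9.30 and 9.68 in D6-deficient skin. Of the nerve and Schwann cell markers (4 of 5 tested, Mbp brightest at 9.68), Mbp was called lower on day 4 in WT skin (−1.76) and on days 1, 2 and 4 in D6-deficient skin (−1.74, −1.92 and −2.07), and the list summed to 11.21, 10.41, 10.38, 9.69 and 10.57 in WT and 11.48, 9.94, 9.79, 9.62 and 10.06 in D6-deficient skin.

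**Figure D5:**
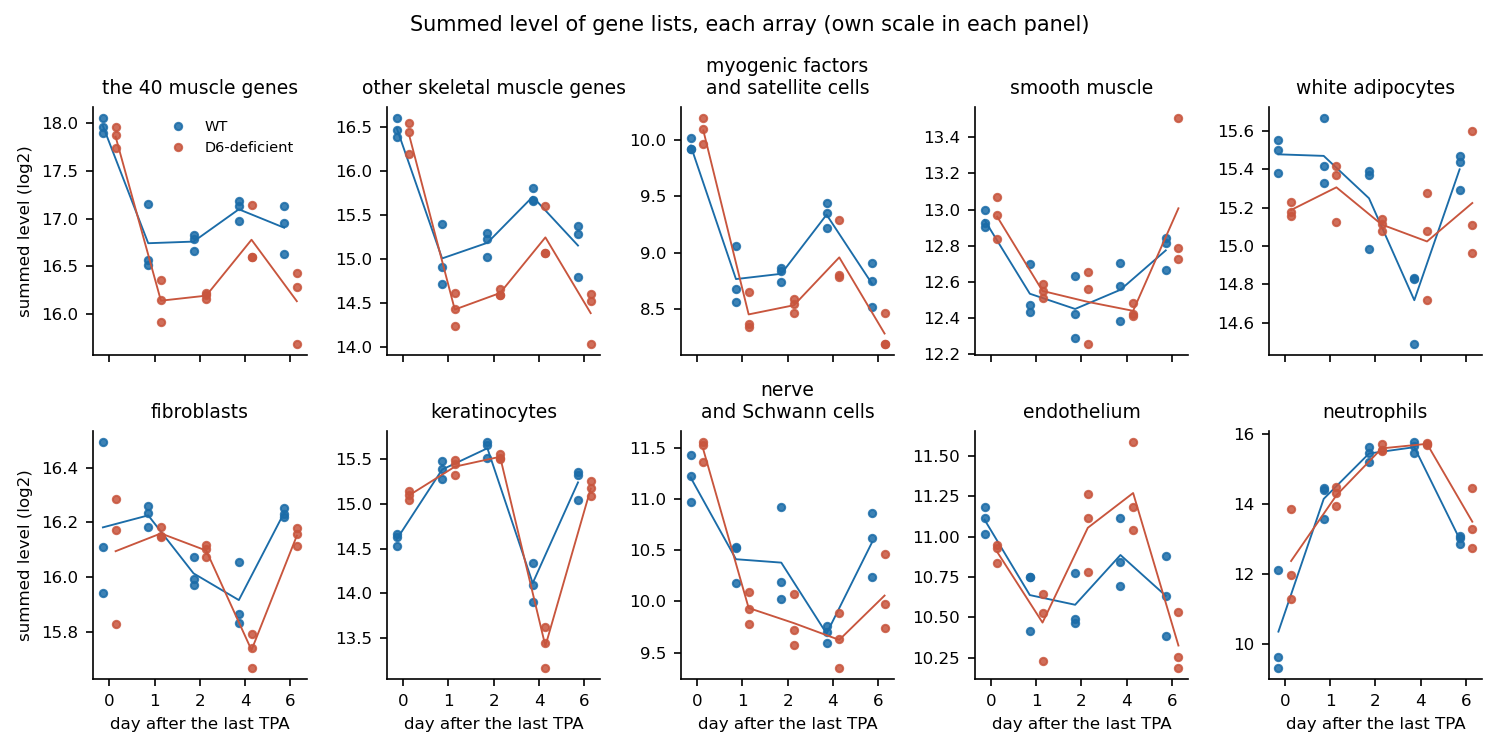
Log2 summed intensity in each array, by group on an evenly spaced day axis, with its own scale in each panel. The panels are the members, other skeletal muscle genes, myogenic factors and satellite cells, smooth muscle and white adipocytes. The others are fibroblasts, keratinocytes, nerve and Schwann cells, endothelium and neutrophils.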

How the data were processed

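RNA of whole mouse back skin was measured on 30 Affymetrix mouse genome expression arrays, 3 in each of 10 genotype-by-day groups. The authors normalised the arrays by RMA in GeneSpring GX, and the deposited values are linear intensities, not set to a baseline. The log2 of the deposited intensity was taken here. Control probe sets and the 20% with the lowest means (9008) were left out. limma 3.58.1 in R 4.3.3 fitted 1 mean per group, with Benjamini-Hochberg adjustment over 36029 probe sets, and a call needed an adjusted p under 0.05 and more than 3-fold. Tables and figures used Python 3.11.15, pandas 2.3.3 and matplotlib 3.10.9.

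Members and lists were chosen with earlier results of these data known. Named were all members by their brightest probe set, 10 representatives in every array, the 5 largest and 5 smallest changes of each comparison with a called member, the 3 largest called changes per list, and the 10 non-members most like the members' mean. Lists were of other skeletal muscle genes, myogenic factors and satellite cells, developmental or denervation genes, cardiac and smooth muscle, white and brown adipocytes, fibroblasts, keratinocytes, endothelium, neutrophils, macrophages, T cells, and nerve and Schwann cells. Alternatives were no filter, no fold threshold, centred arrays, the methods' t-test, arrays of the comparison alone, a replicate block, the 2 array sets given by the hybridization controls as covariate, probe sets averaged per gene, no _x_at or _s_at probe sets, and each array left out.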

Additional observations from a re-analysis of the deposited data

Results flagged for a closer look

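In limma's contrast of D6-deficient against WT skin relative to day 0, 7 genes of the lists passed and none of the 40 members did. Of all tested probe sets, 5.4% passed this contrast at day 2 and 0.608% at day 4. At day 2 the difference was −1.43 (SE 0.39, adjusted p = 0.0282) for Lmod2 and −1.58 (SE 0.35, adjusted p = 0.00649) for Trim63. Both are among the 56 tested other skeletal muscle genes, a share below that of all tested probe sets and no result about that list. At the same day it was 1.85 (SE 0.36, adjusted p = 0.00255) for Csf3r and 3.24 (SE 0.55, adjusted p = 0.000848) for Mmp8 of the neutrophil list, and 1.65 (SE 0.29, adjusted p = 0.00108) for Cd68 of the macrophage list. At day 4 it was −1.36 (SE 0.19, adjusted p = 0.00183) for Krt5 and −1.43 (SE 0.25, adjusted p = 0.00982) for Krt14 of the keratinocyte list.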

How the results depend on the processing

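With 3 arrays per group, small differences near the threshold can miss it, bright genes near the top of the range have less room, and dim probe sets such as those of Tnni1 read little above background. The 296 gene results at an adjusted p under 0.05 gave 2960 values under the alternatives other than leaving out arrays. Of these, 2823 stayed under 0.05, 137 did not, 110 of the latter by the methods' t-test after adjustment, and 0 reversed. The 2823 include all 296 without a fold threshold, which cannot change an adjusted p. They also include 292 by the methods' t-test without adjustment. Leaving out 1 array gave 1776 values, of which 1672 stayed, 104 did not (0 to 11 per array) and 0 reversed.

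Without a fold threshold the called member probe sets were 55, 53, 47 and 53 in WT skin at days 1, 2, 4 and 6, 52 for D6-deficient skin on day 4, and 10 and 5 between genotypes on days 2 and 6, since the threshold alone was dropped. Averaged per gene, which leaves 40 features instead of 62, they were 14, 13, 4 and 12 in WT and 26, 22, 12 and 26 in D6-deficient skin. By the methods' t-test with adjustment they were 12 in WT skin at day 1, 0 at day 6 and 0 between genotypes on day 4. By the methods' t-test without adjustment they were 1 between genotypes on day 1, and 1 and 2 relative to day 0 at days 1 and 6. From the arrays of the comparison alone the count between genotypes on day 4 was 0. Leaving out 1 array gave 2 to 14 in WT skin at day 4, 12 to 32 at day 6, and 0 to 1 between genotypes on days 4 and 6. Except where stated, the cause was not tested.

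With the replicate block, the counts were the same: 30, 24, 7 and 26 in WT skin, 43, 39, 23 and 44 in D6-deficient skin, 1 between genotypes on day 4 and 0 in the other genotype comparisons. Whether replicate numbers pair arrays across groups was checked: the median correlation of residuals was −0.0097 over 135 pairs of the same number and 0.0078 over 270 pairs of different numbers.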
